A study of Mus musculus with 6 samples.

Results

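The Fhl1 transcript of the mouse X chromosome was examined in C2C12 muscle precursor cells. Described are its peaks in a crosslinking pull-down with an antibody against Quaking (Qk) proteins and in a control pull-down. C2C12 is an established mouse line that grows as myoblasts and can be made to fuse into myotubes. The members are the peak entries on the plus strand of chromosome X between positions 53985000 and 54047000 of the mm9 build, all of which are listed under ENSMUSG00000023092, the Ensembl identifier of Fhl1. They number 142 of the 22488 entries in the anti-PanQk list and 27 of the 8496 entries in the anti-HA control list, which makes 169 of 30984 in all. The locus was chosen from the readout itself, that is, from its peaks in these same lists. Entry numbers, read numbers and overlap with the control are therefore given as descriptions, with no test.

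The study used iCLIP, in which ultraviolet light ties proteins to RNA in living cells, an antibody recovers the protein, and sequencing of the attached RNA shows where the contact lay. Both lists came from proliferating C2C12 myoblasts kept in DMEM with 10% fetal bovine serum and irradiated with 400 mJ, with no other treatment and no genetic change given in the labels. One library was made with a mouse anti-PanQk antibody, directed at all Qk isoforms, and the other with a mouse antibody against the HA tag, which serves as the background. Of the 6 libraries of the series, the anti-PanQk myotube, anti-Qk6 and anti-Qk7 libraries were not analysed here. In myoblasts each antibody has 1 library, so the 2 lists have no replicates. Peaks were called by the authors with CLIPper, and the number of reads in each was taken from its name in the deposited files. Gene identifiers are not paired with symbols in the tables used here, so muscle markers could not be checked.

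Quaking proteins belong to the STAR family of RNA-binding proteins. They contact single-stranded RNA through a KH domain, and their isoforms, which differ in the C-terminal tail, act in splicing, RNA stability and translation. Fhl1 encodes a LIM-only protein, built almost entirely of zinc-binding LIM domains, that is abundant in skeletal and cardiac muscle, where it is found at the sarcomere and binds other muscle proteins. Its transcript is alternatively spliced, and in humans mutations in FHL1 cause several X-linked myopathies. Quaking and its targets have been studied in muscle differentiation, and C2C12 is a common model for it.

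Fhl1 was the gene with the most entries and the most reads in the anti-PanQk list. Its 142 entries held 4198 reads, rank 1 of 7135 gene IDs on both counts, mitochondrial genes included. In the control list its 27 entries held 568 reads, rank 11 of 4497 gene IDs by entries and rank 32 by reads. Fhl1 thus took 2.06% of all listed anti-PanQk reads (exact 95% interval 1.99 to 2.12) and 0.364% of all listed control reads (0.335 to 0.395), intervals that cover counting error only. Listed reads at Fhl1 were 7.39 times as many in the anti-PanQk as in the control list, against 1.31 times over the lists as a whole (204258 and 156166 reads). The reads are those inside listed peaks, the depth of the libraries is unknown, and the numbers were not scaled between lists. Over all 3399 gene IDs with peaks in both lists, the median ratio was 0.722 (quartiles 0.313 and 1.67), and Fhl1 was rank 159 from the highest. Among the 178 of them with at least 100 control reads, the median ratio was 0.748 (range 0.0209 to 9.57), and Fhl1 was rank 2. No RNA abundance was measured, so the part that the level of the Fhl1 transcript has in these numbers was not tested.

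The entries were gathered at the downstream end of the locus. The listed stretch ran from 53985016 to 54046508, a length of 61493 nt, and 134 of the 142 anti-PanQk entries (94.4%) and 25 of the 27 control entries (92.6%) lay in its last 1500 nt. These held 98.2% of the reads at Fhl1 in the anti-PanQk list and 95.8% of those in the control list. With entries of either list joined when at most 100 nt apart, Fhl1 fell into 7 blocks. The terminal block, from 54045026 to 54046508, spanned 1483 nt. Another 6 blocks lay upstream and held 8 anti-PanQk and 2 control entries, and of these blocks the sole one with at least 3 entries was that at 54043653 to 54043817. The nearest plus-strand entry outside the rule lay 376 kb upstream in the anti-PanQk list, with 3 reads, and 266 kb downstream in the control list, with 6 reads, so the bounds of the rule decided nothing. An mm9 gene annotation was not used here, and exons, introns and untranslated regions were not assigned to these positions.

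**Figure D1:**
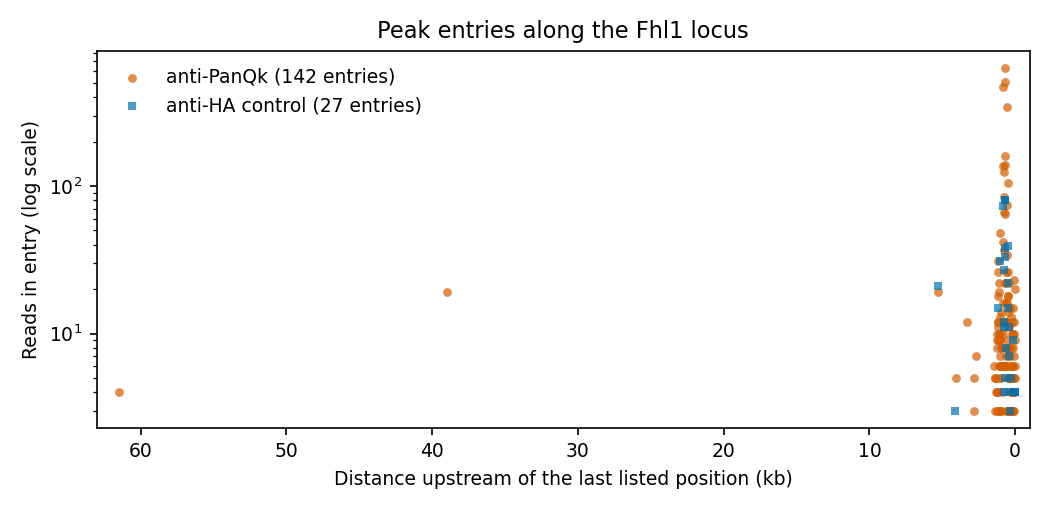
Reads per listed peak entry (log scale) against the distance of the entry's inner part from the last listed position of the Fhl1 locus (kb), for the anti-PanQk list (142 entries, circles) and the anti-HA control list (27 entries, squares). Each point is 1 entry. Apart from 8 anti-PanQk and 2 control entries, the points stand in the last 1500 nt.

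Within the terminal block the anti-PanQk reads were concentrated in a few short stretches. The strongest entry, at 54045765 to 54045781, held 633 reads in 17 nt, rank 12 among all 22488 entries of the list. The entry next to it, at 54045782 to 54045794, held 508 reads in 13 nt. The third, at 54045677 to 54045699, held 471 reads in 23 nt, and the fourth, at 54045956 to 54045986, held 343 reads in 31 nt. These are the 4 Fhl1 entries whose deposited p-value was listed as 0, out of 80 in the whole list. The fifth, of 161 reads, lay at 54045795 to 54045800, directly downstream of the first pair. These 5 entries held 50.4% of the anti-PanQk reads at Fhl1, and the 10 strongest held 64.5%. In contrast, 81 of the 142 entries had fewer than 10 reads, and the median was 8 reads (quartiles 5 and 15.75), where the whole list had a median of 4 (3 and 7).

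The control reads lay at the same places. The pair of strongest control entries, at 54045765 to 54045783 and 54045784 to 54045793, held 80 reads each and covered almost the same intervals as the pair of strongest anti-PanQk entries. Their inner parts, the few nucleotides that the peak file marks within each entry, were at the same positions in both lists, 54045777 to 54045780 and 54045787 to 54045790. The third control entry, of 73 reads, lay at 54045637 to 54045697, with its inner part 2 nt from that of the anti-PanQk entry of 471 reads. The fourth, of 39 reads, lay at 54045957 to 54045995 over the anti-PanQk entry of 343 reads, and the fifth, of 38 reads, at 54045794 to 54045798 over that of 161 reads. Of the 27 control entries, 18 had an inner part within 2 nt of an anti-PanQk inner part, and the median distance was 1.5 nt (range 0 to 77). In the whole control list 9.30% of entries (exact 95% interval 8.69 to 9.94) had an anti-PanQk inner part that near. The terminal block held 134 anti-PanQk entries in 1483 nt, so an inner part placed anywhere in it would often have one close by. The part of this density in the short distances was not tested.

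**Figure D2:**
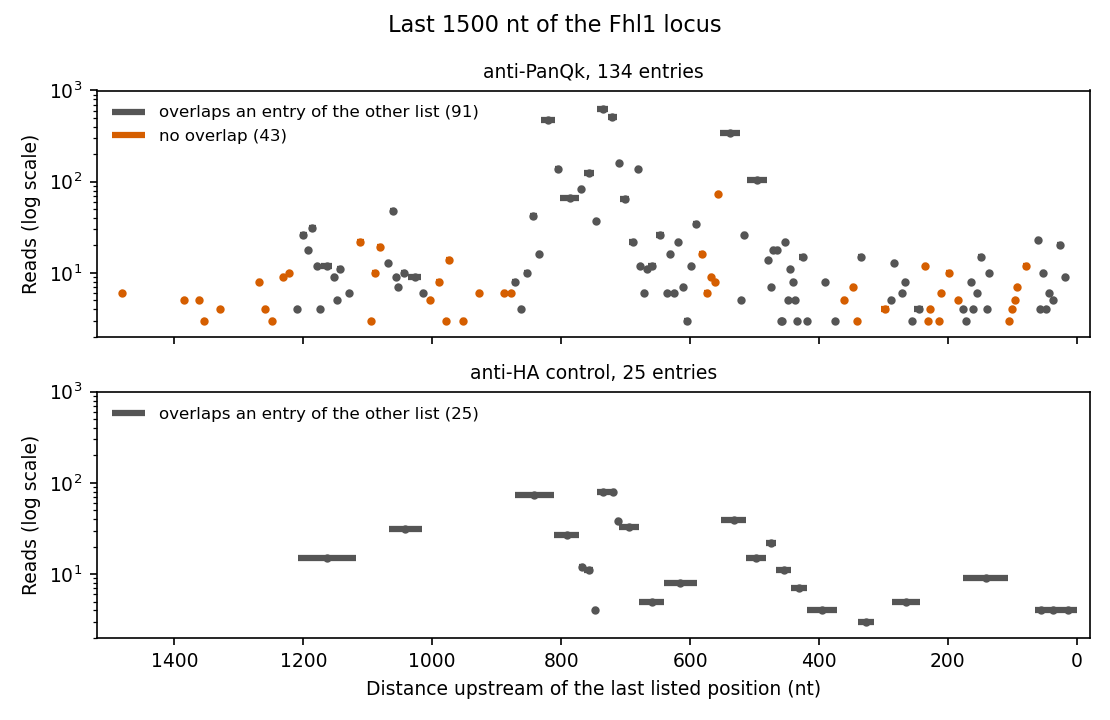
Listed peak entries in the last 1500 nt of the Fhl1 locus, with anti-PanQk above and anti-HA control below. Each horizontal line spans 1 entry at its number of reads (log scale), a dot marks its middle, and colour shows whether an entry of the other list overlaps it: 91 of 134 anti-PanQk and 25 of 25 control entries are overlapped, and the strongest entries of both lists stand at the same distance from the end.

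The distribution of reads along the terminal block was much alike in the 2 lists. The control entries formed 8 stretches there, counting abutting entries as 1 stretch. The longest, at 54045637 to 54045918, consisted of 11 control entries with 371 reads, and 30 anti-PanQk entries with 2702 reads were centred inside it. It held 65.3% of all control reads at Fhl1 and 64.4% of all anti-PanQk reads there. The next, at 54045957 to 54046136, held 98 control and 625 anti-PanQk reads, or 17.3% and 14.9%. The ratio of anti-PanQk to control reads was 7.28 in the first and 6.38 in the second of these stretches. In the other 6 it lay between 3.10, at 54045442 to 54045492 (96 and 31 reads), and 8.93, at 54045300 to 54045389 (134 and 15 reads). With single control entries in place of stretches, 25 of the 27 at Fhl1 had an anti-PanQk inner part centred inside and 2 had none. The 2 were the entry of 11 reads at 54045745 to 54045757 in the terminal block and that of 3 reads at 54042403 to 54042408 upstream. Over the 25 the ratio ranged from 0.905, at the upstream control entry of 21 reads (54041192 to 54041205), to 40.5, at the control entry of 4 reads at 54045758 to 54045764. Their median ratio was 6.80, against 1.75 (quartiles 0.594 and 5.10) over 1651 such control entries in the whole list. Single ratios depend on where an anti-PanQk inner part was centred. The anti-PanQk entry of 125 reads at 54045744 to 54045759 covered the control entry of 11 reads but was counted at that of 4 reads. Likewise, the anti-PanQk entry of 471 reads overlapped control entries of 73 and 27 reads and was counted at the latter, with ratios of 1.1 and 25.

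In bins of 100 nt, the bin from 800 to 700 nt before the last position held the largest share in both lists, 40.0% for anti-PanQk and 50.2% for the control. Of the 11 bins with reads in both lists, the ratio of anti-PanQk to control reads was highest from 700 to 600 nt, at 22.2 (288 and 13 reads), and lowest from 500 to 400 nt, at 3.07 (135 and 44 reads). Entries were binned by their inner parts, so these ratios depend on the bin edges. From 700 to 600 nt the anti-PanQk reads include an entry of 139 reads at 54045825 to 54045829. The control entry of 33 reads overlapping it, at 54045799 to 54045829, was counted from 800 to 700 nt. Over the 15 bins Spearman's rho between the 2 lists was 0.955 and Pearson's r 0.964. These describe 15 neighbouring bins of 1 transcript, which share its abundance and the same 2 libraries. The middle of the reads lay 730 nt before the last position in the anti-PanQk list (quartiles 591 and 803.5) and 720 nt in the control (708 and 812.5).

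**Figure D3:**
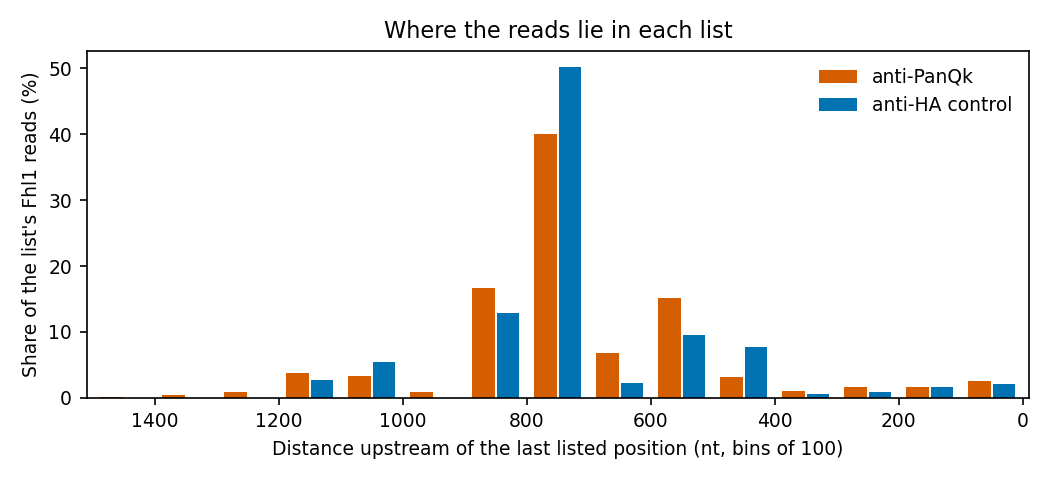
Share of each list's Fhl1 reads (%) in bins of 100 nt, by distance upstream of the last listed position, for anti-PanQk (4198 reads) and anti-HA control (568 reads). Bars stand side by side within each bin. Both lists have their highest bar between 800 and 700 nt, at 40.0% and 50.2%.

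Overlap with the control was more frequent at Fhl1 than over the list. Of the 142 anti-PanQk entries, 92 shared at least 1 nt with a control entry on the same strand (64.8%, exact 95% interval 56.3 to 72.6), while 14.0% of all anti-PanQk entries did. Conversely, 26 of the 27 control entries (96.3%, 81.0 to 99.9) were overlapped by an anti-PanQk entry, against 29.5% of all control entries. The overlapped entries held 89.9% of the anti-PanQk reads at Fhl1, compared with 48.0% over the list. Control entries covered 53.7% of the last 1500 nt and anti-PanQk entries 62.3%. Both lists covered 647 nt there, the anti-PanQk list alone 287 nt, the control alone 158 nt and neither list 408 nt. Intervals take entries as independent, which abutting entries are not.

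Among Fhl1 entries of up to 26 reads, the overlapped share was higher where an entry had more reads, as it was elsewhere, but from a higher start. Among Fhl1 entries of 3 reads, 8 of 18 were overlapped (44.4%, exact 95% interval 21.5 to 69.2), against 2.65% (2.34 to 2.99) of the 9784 such entries under other gene IDs. At 10 to 26 reads the counts were 32 of 43 at Fhl1 (74.4%, 58.8 to 86.5) and 38.0% (36.2 to 39.8) of 2829 elsewhere. At 27 to 50 reads all 5 Fhl1 entries were overlapped (exact 95% interval 47.8 to 100), against 72.6% (68.6 to 76.3) of 543 elsewhere. Above 50 reads the counts were 12 of 13 (92.3%, 64.0 to 99.8) and 79.1% (74.8 to 83.0) of 407. In these last 2 classes the intervals overlap. None of these intervals serves as a test, since they take entries as independent, which abutting entries are not. Weak Fhl1 entries lay among the strong ones, and the part of that neighbourhood in their overlap was not tested.

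**Figure D4:**
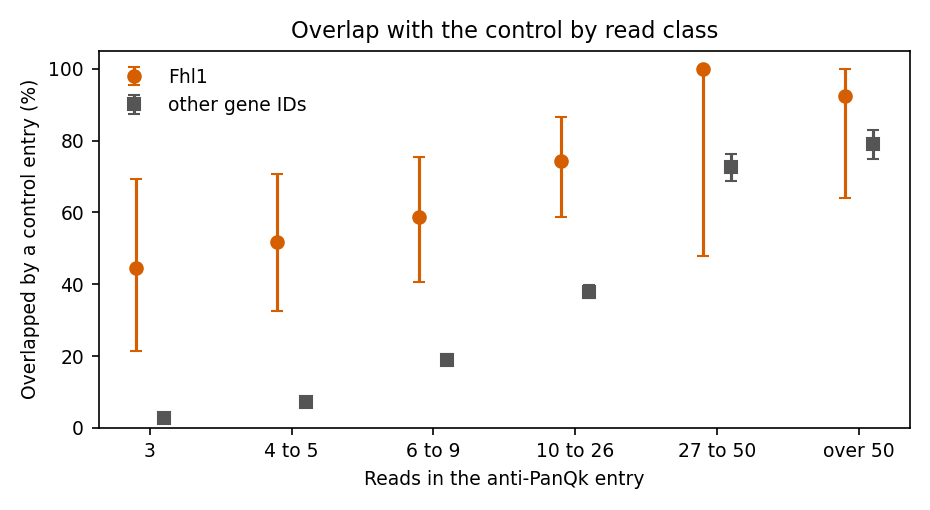
Share of anti-PanQk entries that a control entry overlaps (%), by the number of reads in the anti-PanQk entry, for Fhl1 (142 entries, circles) and all other gene IDs (squares). Error bars are exact 95% intervals and cover counting error only. At 3 reads the shares are 44.4% and 2.65%, and above 50 reads 92.3% and 79.1%.

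The 50 Fhl1 entries that no control entry overlapped, here called control-free (35.2%, exact 95% interval 27.4 to 43.7, against 86.0% of the whole list), were mostly weak and close to control entries. Their median was 6 reads (quartiles 4 and 9) and their sum 423, while overlapped Fhl1 entries had a median of 10 reads (5.75 and 22). Over the whole list the medians were 4 reads (3 and 5) for control-free and 12 reads (6 and 25) for overlapped entries. In the terminal block lay 43 of the control-free Fhl1 entries, in the gaps between control stretches. The strongest, at 54045950 to 54045955, held 74 reads in 6 nt, and 1 nt separated it from the control entry at 54045957. It directly preceded the anti-PanQk entry of 343 reads. With the 4 control-free entries just upstream of it, it filled the gap from 54045919 to 54045956 with 113 reads. The next strongest, of 22 reads at 54045392 to 54045402 and 19 reads at 54045423 to 54045432, lay 2 and 9 nt from a control entry, in a gap with 4 control-free entries.

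The longest stretch of the terminal block without a control entry was its upstream edge. From 54045026 to 54045299 there were 10 control-free anti-PanQk entries of 3 to 10 reads, 57 reads in all. A gap of 144 nt, from 54045493 to 54045636, held 8 control-free entries of 3 to 14 reads. Toward the downstream end, the gap at 54046265 to 54046332 held 7 such entries with 43 reads, and that at 54046402 to 54046443 held 5 with 31 reads. Control-free entries thus occurred in gaps from the upstream edge of the block to near its downstream end, with at most 22 reads apart from that of 74. None lay from 800 to 600 nt or from 500 to 400 nt before the last position, and the former range includes the strongest entries of both lists.

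The upstream entries were few and differed in width. The anti-PanQk ones were 26 to 81 nt wide, with a median of 36 nt, whereas those of the terminal block were 2 to 31 nt wide, with a median of 6 nt. The control went the other way: its 2 upstream entries were 6 and 14 nt wide, against a median of 27 nt (range 5 to 90) in the terminal block. The most upstream entry, at 53985016 to 53985041, held 4 reads, and the next, 22 kb downstream at 54007515 to 54007566, held 19 reads, with the nearest control entry 33625 nt away. At 54041166 to 54041246 an anti-PanQk entry of 19 reads contained a control entry of 21 reads (54041192 to 54041205), where the control had slightly more reads, unlike in every stretch of the terminal block. At 54042469 to 54042496 an anti-PanQk entry of 5 reads lay 60 nt from the sole control entry that no anti-PanQk entry overlapped, of 3 reads at 54042403 to 54042408. The remaining entries, at 54043159 to 54043218 (12 reads) and the group of 3 at 54043653 to 54043817 (3, 5 and 7 reads), had no control entry beside them. Upstream of the terminal block, 7 of the 8 anti-PanQk entries were control-free, with 55 reads together, a share near the 86.0% of the whole list.

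Of the 142 anti-PanQk entries, 67 had a deposited p-value of at most 1e-06 (47.2%, against 19.4% of the list), and of the 27 control entries 16 did (59.3%, against 72.8%). Among the 50 control-free Fhl1 entries 14 passed this limit, with 9 to 74 reads. The matching share among the 19333 control-free entries of the whole list was not computed, so the 14 are given as a count only. Of the 14, 2 lay more than 100 nt from any control entry, namely those of 19 reads at 54007515 to 54007566 and of 12 reads at 54043159 to 54043218.

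The number of entries at Fhl1 does not count separate binding sites. Anti-PanQk entries were narrow, with a median width of 6 nt (quartiles 4 and 8.75) against 32 nt (10 and 45) over the list, and 82.4% were at most 10 nt wide, against 27.8%. Control entries at Fhl1 had a median width of 25 nt, against 22 nt over their list. Of the 141 pairs of neighbouring anti-PanQk entries, 85 abutted with no gap, and no entries overlapped within the list. The longest abutting runs were 27 entries over 198 nt (54045895 to 54046092, 783 reads) and 20 entries over 218 nt (54045651 to 54045868, 2584 reads or 61.6% of the anti-PanQk reads at Fhl1). Read numbers changed abruptly across such borders, by a median of 2.5 times and at most 68.6 times, where the entry of 343 reads met one of 5 reads and 2 nt. Peak names carry a running number per gene, which reached 275 for anti-PanQk and 29 for the control at Fhl1, so at most 51.6% and 93.1% of the numbered peaks were listed. With entries at most 50 nt apart merged, Fhl1 had 9 anti-PanQk and 6 control entries, and 1 anti-PanQk entry of 1257 nt took in most of the terminal block.

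Other gene IDs with many entries showed some of these features. Among the 88 gene IDs with at least 20 anti-PanQk entries, the median width per gene had a median of 31.75 nt (range 4 to 59.5), and the 6 nt of Fhl1, a median width that 8 of the 88 had, was rank 8 from the narrowest. By overlapped share Fhl1 was rank 16 of the 88, whose median was 26.6%. The gene most like Fhl1 over 5 numbers on the log2(1 + value) scale (entries and reads in each list, and control-free entries) was ENSMUSG00000018593 on the minus strand of chromosome 11 (55208026 to 55233327), at a Euclidean distance of 0.929. It had 119 anti-PanQk entries with 2922 reads and 23 control entries with 466 reads, and 32 of the 119 were control-free. The next were ENSMUSG00000064351 of the mitochondrial chromosome at a distance of 1.78 (78 anti-PanQk and 34 control entries), ENSMUSG00000031207 on the plus strand of the X chromosome at 2.08 (134 and 19) and ENSMUSG00000022565 on the minus strand of chromosome 15 at 2.38 (81 and 27). Their median anti-PanQk widths were 6, 4, 7 and 7 nt, in this order. The likeness rests on 2 libraries.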

How the data were processed

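Per the file headers, each list holds CLIPper peaks from 1 library in mm9 coordinates, and its track line carries the library's name, which tied it to a sample. The headers' tags tophat, rptfilt and premRNA are unexplained. The submitters' processing notes name Bowtie2 and TopHat, with no versions. The p-values are the authors' deposited ones. Reads and running numbers were taken from the deposited peak names, and whether abutting peaks share reads is not stated. Totals include intervals repeated under another gene ID. With each interval counted once they were 200878 anti-PanQk and 150162 control reads.

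The locus, lists and alternatives were chosen with earlier results of these data known. Named by a set rule were the 5 strongest entries of each list, the strongest control-free ones, the most upstream ones and the blocks of at least 3 entries. Other entries were named where the description called for them, outside this rule. Named genes are the 4 nearest to Fhl1. Lists of LIM proteins, Fhl1 partners and myoblast markers could not be matched, since the reference table pairs 0 Ensembl IDs. No mm9 genome was given, so no sequence was read. The overlap code was tested on simulated intervals. Versions were scipy 1.17.1, matplotlib 3.10.9, numpy 2.4.6, pandas 2.3.3 and Python 3.11.15.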

Additional observations from a re-analysis of the deposited data

How the results depend on the processing

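No paired analysis was possible because each of the 2 groups analysed has 1 library, and no library could be left out. Of 52 values recomputed under other settings, 36 stayed near those reported, within 1.5 times for a count and inside the 95% interval for a share or median, and 16 did not. With deposited p at most 1e-06 in both lists, Fhl1 kept 67 anti-PanQk entries (66 in the last 10% of the locus) of the 142 (140), and 16 control entries, all in the last 10%, of the 27. Control-free entries then numbered 30 of the 67 instead of 50 of the 142. Of the 30, 14 were control-free with all entries kept as well. The others became so because the limit removed the control entries overlapping them. The share over the whole list under this limit was not computed. The median anti-PanQk entry had 16 reads instead of 8, and 100% of control entries were overlapped instead of 96.3%. With entries within 50 nt merged, 9 anti-PanQk (7 in the last 10%) and 6 control entries (6 in the last 10%) were left, 7 of the 9 were control-free, and the median widths were 60 and 70.5 nt against 6 and 25 nt. With control entries within 100 nt counted as overlapping, 11 entries were control-free and 100% of control entries were overlapped. These settings admit fewer entries, join them or widen the overlap by construction. Equal list lengths, an overlap of 50% of the shorter entry, strand ignored and each interval counted once gave control-free counts of 34, 55, 50 and 50. Leaving out control entries of 10 to 26 reads, a setting added after seeing the data, gave 73.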
